A study of Mus musculus with 71 samples.

Results

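Atm, Efcab7, Cd59a, En2 and Phyhip are 5 of the 37620 genes counted by RNA sequencing in mouse embryos that lack different parts of the miR-17~92 cluster. They were chosen because their change in the alleles missing several miRNA families did not follow the sum of the changes seen when each family was missing alone. The counts used for that choice are the ones described here, so the genotype values of these genes are a description and carry no test.

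The libraries came from C57BL/6 embryos at E9.5 with 20 to 22 somites, dissected into heart, tail bud and the remaining embryo, with 7 mutant genotypes and wild type. By the labels, Full-KO embryos carried a knockout of miR-17~92. Delta_17_18_92 embryos lacked miR-92a-1 in addition to miR-18a, miR-17 and miR-20a. Delta_17_18 embryos lacked miR-17, miR-20a and miR-18a. Delta_17 embryos lacked miR-17 and miR-20a, Delta_18 embryos miR-18a, Delta_19 embryos miR-19a and miR-19b-1, and Delta_92 embryos miR-92a-1. Wild-type embryos had an intact locus. Each genotype had 3 libraries per tissue, which the series calls biological replicates, except that the remaining embryo of Delta_17_18_92 had 2, giving 71 libraries in 24 groups. The labels give no second mutation or treatment, and they state neither zygosity nor how many founder lines stand behind an allele, so an effect of the deletion and one of the line that carries it cannot be told apart.

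MiR-17~92 is a polycistronic miRNA cluster whose products fall into the miR-17, miR-18, miR-19 and miR-92 seed families. A mature miRNA guides Argonaute to messenger RNAs, mostly through pairing of its seed with sites in the 3′ untranslated region, and lowers the stability and translation of those RNAs. In mammals the cluster is known for roles in cell survival and proliferation, and its loss affects heart, lung, skeletal and B cell development.

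The mature sequences below, from the RefSeq miRNA annotation of GRCm38.p6 (chromosome 14, plus strand), define the families of the cluster. They are written 5′ to 3′ and the capitals mark the seed, bases 2 to 8. An allele is said here to lack a family where the members of that family in this cluster are deleted. Any family members encoded elsewhere were not examined. MiR-17 and miR-20a share a seed, miR-19a and miR-19b share another, and the seeds of miR-18a and miR-92a are each their own.
mmu-miR-17-5p: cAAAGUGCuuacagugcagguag
mmu-miR-20a-5p: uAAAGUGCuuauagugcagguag
mmu-miR-18a-5p: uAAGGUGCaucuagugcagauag
mmu-miR-19a-3p: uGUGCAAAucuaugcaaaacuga
mmu-miR-19b-3p: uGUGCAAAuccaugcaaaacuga
mmu-miR-92a-3p: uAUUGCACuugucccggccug

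Matches to these seeds were searched for in the 5 genes. In the longest annotated 3′ untranslated region of each, searched on the transcript strand only, the 8mers were GCACTTTA for miR-17, GCACCTTA for miR-18, TTTGCACA for miR-19 and GTGCAATA for miR-92. The shorter forms were the 8mer without its last A and the 8mer without its first base. Atm (597 nt), Efcab7 (178 nt) and Cd59a (1174 nt) held none of these letters for any family. En2 (1731 nt) held 1 short match to miR-92, shown in capitals with its flanks, and Phyhip (1497 nt) held 1 match to miR-17. The base number given for En2 is that of the letter just before the capitals, and for Phyhip that of the first capital.
En2, chromosome 5, from base 56 of the region: cgcgagaaacaaTGCAATAattttaaaacc
Phyhip, chromosome 14, from base 862 of the region: tgcccagctgtGCACTTTgctcgctcaccc
Among 19751 genes with an annotated region, whose median length was 987 nt, 19.0% held a match of any of these forms to miR-17, 12.7% to miR-18, 17.0% to miR-19 and 12.9% to miR-92. A match is a run of letters and not a measured binding site.

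Library totals ran from 13532012 to 27477273 counts. Levels are given in CPM, the counts of a gene scaled to the size of its library, computed here from the deposited counts with trimmed-mean scaling within each tissue. The tissue labels matched their markers: the 8 cardiomyocyte markers summed to 32044 to 35284 CPM in Wild-type heart and to 26.0 to 38.7 CPM in Wild-type tail bud, and the 8 tail bud markers to 745 to 854 CPM in Wild-type tail bud and 9.38 to 14.1 CPM in Wild-type heart. The deleted hairpins could not be checked, since all 6 hairpin genes were listed at 0 in every library, Wild-type included. The host transcript Mir17hg remained detectable and averaged 358 ± 4.30 CPM in Full-KO tail bud against 128 ± 16.1 CPM in Wild-type tail bud (SD, n = 3 each), a log2 fold change of 1.48 ± 0.07 (edgeR adjusted p = 5.47e-13). Log2 fold changes are mutant minus Wild-type, ± SE, from an edgeR quasi-likelihood fit of all libraries of a tissue, and a gene was called where its Benjamini-Hochberg adjusted p was under 0.05. All mutant comparisons within a tissue share the same Wild-type libraries.

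Departure from additivity was measured, per gene and tissue, by comparing 1 mean per genotype with a sum of 4 family terms. The share of genes past the adjusted threshold was 0.0176% for tail bud, 0.0597% for heart and 0.103% for the remaining embryo. Of the members, 1 of 5 was past it in tail bud (Efcab7), 1 of 4 in heart (Phyhip) and 5 of 5 in the remaining embryo. Ranked by the size of the departure among 17512 genes in the remaining embryo, Atm was at place 1, En2 at 2, Efcab7 at 4, Phyhip at 11 and Cd59a at 12. The same ranking in tail bud placed En2 at 15597 and Cd59a at 1297 of 17009 genes, far lower than in the remaining embryo. Because the members were picked on this measure, nothing is read from these counts.

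The members divided by the alleles in which they were high. Every library was above every Wild-type library in Delta_17_18 for 4 of 5 members in tail bud (12.6% of all genes tested there), 2 of 4 in heart (9.04%) and 4 of 5 in the remaining embryo (12.4%). In Delta_18 this held for 3 of 5 (6.39%), 2 of 4 (5.54%) and 4 of 5 (7.73%), in the same order of tissues. In Full-KO it held for 1 member in each tissue, Atm (13.5%, 12.4% and 12.4% of all genes). In Delta_17_18_92 it held for 1 of 5 (11.2%), 2 of 4 (10.1%) and 1 of 5 (17.6%), and in the remaining embryo 2 of 5 members lay wholly below Wild-type (17.9%). For Delta_17 the counts were 1 (8.46%), 1 (8.08%) and 2 (8.74%), for Delta_19 they were 1 (7.82%), 1 (7.83%) and 3 (8.04%), and for Delta_92 they were 2 (6.1%), 2 (5.99%) and 2 (7.11%). The rule for choosing the genes used these contrasts.

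Atm (ENSMUSG00000034218, chromosome 9) encodes the kinase that is activated by DNA double-strand breaks and phosphorylates p53 and CHK2. It was the only member high in every allele that lacks miR-17 or miR-18, in all 3 tissues. In tail bud it stood at 241, 237 and 248 CPM in Full-KO, 226, 232 and 202 CPM in Delta_17_18_92, 229, 216 and 220 CPM in Delta_17_18, 192, 180 and 188 CPM in Delta_17 and 235, 217 and 218 CPM in Delta_18, against 145, 152 and 125 CPM in Wild-type. Delta_19 gave 146, 143 and 149 CPM and Delta_92 gave 148, 126 and 136 CPM. The 5 genotypes without miR-17 or miR-18 lay above all Wild-type libraries, while Delta_19 and Delta_92 overlapped them.

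The log2 fold change of Atm against Wild-type in tail bud was 0.78 ± 0.06 in Full-KO (1.72-fold), 0.64 ± 0.06 in Delta_17_18_92, 0.65 ± 0.06 in Delta_17_18, 0.41 ± 0.06 in Delta_17 and 0.67 ± 0.06 in Delta_18. It was 0.05 ± 0.06 in Delta_19 and -0.04 ± 0.06 in Delta_92. The loss of miR-18a alone and the joint loss of miR-17, miR-20a and miR-18a thus gave almost the same level. Delta_17_18 minus Delta_18 was -0.01 ± 0.06 (95% interval -0.13 to 0.11, not adjusted for the choice of Atm). The joint allele stood above the loss of miR-17 and miR-20a alone by 0.25 ± 0.06. The summed changes of the single-family alleles would have been 1.07 in Delta_17_18, and the observed change fell short of it by 0.42 (observed minus summed -0.42 ± 0.09).

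The order of Atm levels was much alike across tissues. In heart, where Wild-type libraries had 79.6, 81.2 and 91.7 CPM, the 5 high genotypes ranged between 102 and 130 CPM, each above all Wild-type libraries. Among them Delta_17 (102 to 112 CPM) and Delta_17_18_92 (102 to 115 CPM) lay below Full-KO (117 to 122 CPM) and Delta_17_18 (116 to 130 CPM), while Delta_18 (109 to 121 CPM) overlapped all 4. Heart log2 fold changes were 0.50 ± 0.06 in Full-KO, 0.40 ± 0.06 in Delta_17_18_92, 0.54 ± 0.06 in Delta_17_18, 0.34 ± 0.06 in Delta_17 and 0.44 ± 0.06 in Delta_18. Delta_19 and Delta_92 hearts stayed within 75.3 to 86.9 CPM and overlapped Wild-type. In the remaining embryo Full-KO had 269, 256 and 256 CPM, Delta_18 had 244, 242 and 243 CPM, Delta_17 had 200, 211 and 205 CPM, and Wild-type had 159, 171 and 167 CPM. Full-KO was there above each other genotype, Delta_17_18_92, Delta_17_18 and Delta_18 formed a middle level between 229 and 248 CPM, Delta_17 was lower, and Wild-type, Delta_92 and Delta_19 shared the lowest range. The observed change of Delta_17_18 minus the summed one was -0.24 ± 0.09 in heart and -0.37 ± 0.05 in the remaining embryo. In Full-KO the shortfall was smaller in size than in Delta_17_18 in all 3 tissues, -0.04 ± 0.09 in the remaining embryo, -0.19 ± 0.17 in heart and -0.30 ± 0.17 in tail bud.

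The summed level of 6 primitive erythroid markers also differed in tail bud, at 796 to 3513 CPM in Full-KO and 1489 to 3039 CPM in Delta_17_18_92 against 3734 to 5587 CPM in Wild-type. In Full-KO tail bud the 12 early neuron markers summed to 123 to 131 CPM against 110 to 116 CPM in Wild-type, and the 4 neural progenitor markers to 218 to 237 CPM against 189 to 215 CPM. The part of these cells in the Full-KO tail bud values of Atm, and in those of the other genes given for that group, was not tested. The erythroid sum overlapped in the remaining embryo, at 2537 to 3063 CPM in Full-KO against 2610 to 3901 CPM in Wild-type. Atm was 1.57-fold higher in the remaining embryo of Full-KO, and the part of these cells in that value was not tested either. In bulk tissue, fewer cells of a type and less RNA per cell cannot be told apart.

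**Figure D1:**
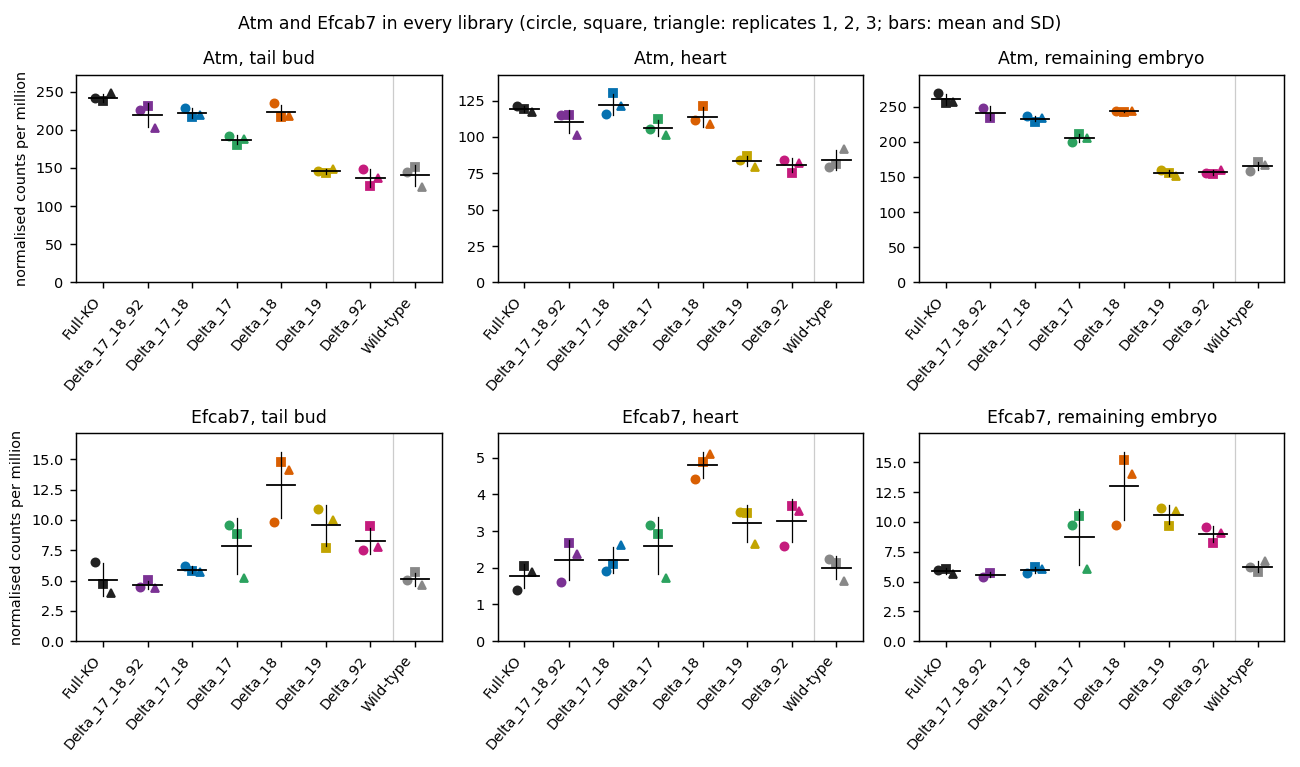
Levels of Atm and Efcab7 in CPM (vertical axes) in tail bud, heart and the remaining embryo, by genotype, with mutants left of Wild-type. Each marker is 1 library, circle, square and triangle are replicates 1, 2 and 3, and the bars give the mean and SD. Atm is high in every genotype without miR-17 or miR-18, and Efcab7 is highest in Delta_18 and at the Wild-type level in Full-KO.

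The plot of Atm and Efcab7 levels shows the contrast between both genes. In each tissue Full-KO lies above all Wild-type libraries for Atm and overlaps them for Efcab7. Of 17 ATM partners and DNA damage kinases, all tested, 2 rose and 0 fell in Full-KO tail bud, a share near the 10.4% of all genes called there, with a median log2 fold change of 0.07 against -0.01 over all genes tested. Chek2, the kinase that ATM activates, averaged 50.1 CPM in Full-KO tail bud and 38.8 CPM in Wild-type tail bud (a log2 fold change of 0.37, edgeR adjusted p = 0.000202). Chek2 also rose in Delta_17_18_92 (0.37, edgeR adjusted p = 0.000325), Delta_17_18 (0.35, edgeR adjusted p = 0.000888) and Delta_17 (0.31, edgeR adjusted p = 0.00427) tail bud, where 5.57%, 8.31% and 1.77% of all genes were called. Chek2 of the remaining embryo averaged 52.0 CPM in Full-KO and 36.6 CPM in Wild-type (0.51, edgeR adjusted p = 1.34e-07, with 6.66% of all genes called), and it rose in Delta_17 there (0.36, edgeR adjusted p = 9.26e-05, with 1.56% of all genes called). It also rose in Delta_17_18 (0.32, edgeR adjusted p = 0.000429, with 4.44% of all genes called) and Delta_17_18_92 (0.38, edgeR adjusted p = 0.000107, with 5.62% of all genes called). Its log2 fold change in Delta_18, where Atm was high, was 0.00 (edgeR adjusted p = 0.984).

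Prkdc, the DNA-dependent protein kinase, was the other gene called (0.25, edgeR adjusted p = 0.0409). Its call was lost without Wild-type replicate 3 (adjusted p = 0.246) or without any single Full-KO library. Of 16 p53 target genes, 0 rose and 1 fell in Full-KO tail bud, against 10.4% of all genes called, with a median log2 fold change of -0.03. The gene that fell was Sesn1, a stress-induced regulator of mTORC1 signalling (-0.27, edgeR adjusted p = 0.0348), and its call too was lost without Wild-type replicate 3 (adjusted p = 0.282) or without any single Full-KO library.

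Npat, a regulator of histone gene transcription that is the head-to-head neighbour of Atm, averaged 96.5 ± 0.82 CPM in Full-KO tail bud and 78.0 ± 7.38 CPM in Wild-type tail bud (SD, n = 3 each). The log2 fold change was 0.30 (edgeR adjusted p = 0.000967), smaller than that of Atm. Npat also rose in the remaining embryo of Full-KO (0.17, edgeR adjusted p = 0.0117), a call lost without Wild-type replicate 1 or 2 or Full-KO replicate 3. In Full-KO heart, where 3.91% of all genes were called, its value was 0.03 (edgeR adjusted p = 0.878). Npat tail bud values were 0.24 in Delta_17 (edgeR adjusted p = 0.0221), 0.20 in Delta_17_18 (edgeR adjusted p = 0.0318) and 0.22 in Delta_17_18_92 (edgeR adjusted p = 0.018), each call lost without Wild-type replicate 3. In Delta_18 tail bud Npat changed by 0.05 (edgeR adjusted p = 0.734), although Atm was 1.59-fold higher there. Of the 10 tested genes on each side of Atm, 2 rose and 0 fell in Full-KO tail bud, which is 10% of them against 10.4% of all genes. Npat was 1 and the solute carrier gene Slc35f2 the other (0.34, edgeR adjusted p = 0.0225), whose call was lost without Wild-type replicate 2 or 3 or Full-KO replicate 3. The genes whose 24 group means, centred within each tissue, were most like those of Atm were Trappc10 (Pearson r = 0.97), Fnbp1 (r = 0.96) and Dguok (r = 0.95), out of 12930 genes compared. None of these is on chromosome 9, and the points share their libraries.

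Efcab7 (ENSMUSG00000073791, chromosome 4) encodes an EF-hand protein that, with IQCE, anchors the EVC and EVC2 proteins at the base of the primary cilium, where they take part in Hedgehog signalling. It was high in the alleles that lack 1 family and near Wild-type in the alleles that lack several. In tail bud it stood at 9.80, 14.7 and 14.1 CPM in Delta_18, 10.9, 7.67 and 10.0 CPM in Delta_19, 7.55, 9.48 and 7.79 CPM in Delta_92 and 9.56, 8.82 and 5.21 CPM in Delta_17, against 5.02, 5.67 and 4.63 CPM in Wild-type. Full-KO gave 6.56, 4.70 and 3.93 CPM, Delta_17_18_92 gave 4.48, 5.03 and 4.41 CPM, and Delta_17_18 gave 6.20, 5.77 and 5.71 CPM. All libraries of Delta_18, Delta_19 and Delta_92 were above Wild-type, those of Delta_17_18 only slightly so, and Full-KO and Delta_17_18_92 overlapped it.

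Log2 fold changes of Efcab7 in Delta_18 were 1.32 ± 0.20 for tail bud (2.50-fold), 1.25 ± 0.22 for heart (2.38-fold) and 1.05 ± 0.15 for the remaining embryo (2.07-fold). In Delta_19 they were 0.89 ± 0.20, 0.67 ± 0.23 and 0.76 ± 0.16, and in Delta_92 they were 0.68 ± 0.21, 0.72 ± 0.23 and 0.52 ± 0.16, in the same order of tissues. The values in Full-KO were -0.03 ± 0.21, -0.16 ± 0.24 and -0.09 ± 0.17. Removing miR-17 and miR-20a along with miR-18a went with a level more than 1 log2 unit lower than removing miR-18a alone: Delta_17_18 minus Delta_18 was -1.12 ± 0.20 for tail bud, -1.11 ± 0.22 for heart and -1.11 ± 0.16 for the remaining embryo, and no libraries overlapped. Had the single-family changes added up, Full-KO would have changed by 3.51, 2.99 and 2.82, and the observed minus summed values were -3.54 ± 0.56, -3.15 ± 0.62 and -2.91 ± 0.43.

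In heart Efcab7 was lower throughout, at 4.41, 4.88 and 5.10 CPM in Delta_18, 1.40, 2.04 and 1.89 CPM in Full-KO and 2.25, 2.13 and 1.64 CPM in Wild-type. Delta_18 was above each other genotype in heart with no overlap. The 6 primitive erythroid markers summed to 2827 to 9343 CPM in Delta_18 heart against 947 to 2729 CPM in Wild-type heart, and their part in the Efcab7 value was not tested. Delta_18 libraries of the remaining embryo had 9.75, 15.2 and 14.0 CPM, Delta_19 had 11.2, 9.69 and 10.9 CPM, Full-KO had 5.96, 6.06 and 5.60 CPM and Wild-type had 6.22, 5.79 and 6.72 CPM, so that Delta_18 and Delta_19 overlapped each other.

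Libraries with the same genotype and replicate number had the same Xist state, high or low, in 23 of 23 sets of 3 tissues, and the embryos of an allele were not alike. Replicate 3 of Delta_17 was the lowest of its genotype for Efcab7 in all 3 tissues, at 6.02 CPM in the remaining embryo, 5.21 CPM in tail bud and 1.73 CPM in heart, and so within the Wild-type range in each. Replicates 1 and 2 of Delta_17 were above all Wild-type libraries in each tissue. Without Delta_17 replicate 3 the Delta_17 log2 fold changes became 0.84, 0.60 and 0.70, against 0.61, 0.35 and 0.48 with it. Replicate 1 of Delta_18 was likewise the lowest of its genotype in each tissue. Over 15688 genes and 7 genotypes, the same replicate was lowest in all 3 tissues in 18.3% of cases. For Efcab7 this held in 2 of 7 genotypes.

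The 12 early neuron markers summed to 123 to 137 CPM in Delta_18 tail bud against 110 to 116 CPM in Wild-type tail bud, and their part in the Efcab7 value was not tested. In the remaining embryo that sum overlapped, at 187 to 277 CPM in Delta_18 against 162 to 203 CPM in Wild-type. Of 19 Hedgehog pathway and EVC zone genes, 0 were called by edgeR in Delta_18 tail bud, where 0.129% of all genes were called, 4 had an unadjusted p under 0.05, and DESeq2 also called 0. The partners of EFCAB7 showed small values there: Iqce 0.17 (edgeR adjusted p = 0.339), Evc 0.04 (edgeR adjusted p = 0.875) and Evc2 0.08 (edgeR adjusted p = 0.561).

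In Full-KO tail bud, where Efcab7 was at the Wild-type level, 4 of the 19 rose and 0 fell, against 10.4% of all genes called. Smo, the transducer of the pathway, rose by 0.22 (edgeR adjusted p = 0.00497). The ligand gene Shh rose by 0.36 (edgeR adjusted p = 0.0399) and Evc2 by 0.19 (edgeR adjusted p = 0.0403). The calls of Shh and Evc2 were each lost without Wild-type replicate 3 (adjusted p = 0.117 and 0.198), Full-KO replicate 1 or Full-KO replicate 3. That of Shh was lost without Wild-type replicate 1 too.

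Of the 10 tested genes on each side of Efcab7, 0 were called by edgeR in Delta_18 tail bud and 2 had an unadjusted p under 0.05. Of the 20, 1 rose in the remaining embryo of Delta_18, which is 5% against 0.36% of all genes. In Full-KO tail bud, where Efcab7 was at the Wild-type level, 3 rose and 2 fell, which is 25% against 10.4% of all genes. These genes were chosen after their values were seen. Cachd1 (0.32, edgeR adjusted p = 0.00109), Raver2 (0.26, edgeR adjusted p = 0.0255) and the cytokine receptor kinase gene Jak1 (0.16, edgeR adjusted p = 0.0448) rose. The autophagy protease gene Atg4c (-0.25, edgeR adjusted p = 0.0403) and the centromere protein gene Itgb3bp (-0.40, edgeR adjusted p = 0.0261) fell. All these calls but that of Cachd1 were lost without Wild-type replicate 3, Full-KO replicate 1 or Full-KO replicate 3. Those of Jak1, Atg4c and Itgb3bp were lost without Full-KO replicate 2 too, that of Jak1 without Wild-type replicate 1 and that of Atg4c without Wild-type replicate 2. The genes most like Efcab7 over the 24 group means included Topbp1 (r = 0.87) and Pfkfb4 (r = 0.84).

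Cd59a (ENSMUSG00000032679, chromosome 2) encodes a membrane-anchored inhibitor of the complement membrane attack complex. Its mean was highest in Delta_92 in all 3 tissues. In the remaining embryo it stood at 9.96, 7.89 and 8.17 CPM in Delta_92, 9.24, 4.66 and 7.24 CPM in Delta_18 and 5.25, 5.20 and 5.11 CPM in Delta_19, against 4.00, 3.97 and 3.87 CPM in Wild-type. Full-KO had 4.70, 3.55 and 3.99 CPM and Delta_17_18_92, with 2 libraries, had 3.10 and 4.45 CPM. Delta_92, Delta_18 and Delta_19 were above all Wild-type libraries. So, by less, were Delta_17 (mean 4.37 CPM, log2 fold change 0.14 ± 0.18) and Delta_17_18 (mean 4.76 CPM, 0.27 ± 0.18). Full-KO and Delta_17_18_92 overlapped the Wild-type libraries although both also lack miR-92a-1.

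The log2 fold change of Cd59a in Delta_92 was 1.14 ± 0.17 in the remaining embryo (2.20-fold), 0.73 ± 0.15 in heart and 0.78 ± 0.26 in tail bud. In Delta_17_18_92 it was -0.06 ± 0.20, 0.34 ± 0.15 and -0.37 ± 0.28, and in Full-KO 0.05 ± 0.18, 0.04 ± 0.15 and -0.68 ± 0.29, in the same order of tissues. Observed minus summed values were -2.18 ± 0.36, -0.86 ± 0.30 and -1.28 ± 0.55 in Delta_17_18_92, and -2.46 ± 0.47, -1.10 ± 0.40 and -1.74 ± 0.73 in Full-KO.

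In heart, where Cd59a was most abundant, Delta_92 libraries had 47.9, 50.8 and 56.0 CPM against 28.8, 37.1 and 27.6 CPM in Wild-type. In tail bud Delta_92 had 5.71, 8.21 and 7.56 CPM, Full-KO had 1.78, 2.53 and 3.34 CPM, and Wild-type had 3.22, 4.66 and 4.63 CPM. Delta_92 did not overlap Wild-type in either tissue, and the highest Full-KO tail bud fell within the Wild-type range.

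The Delta_18 replicates differed in Cd59a. Replicate 2 had 3.10 CPM in tail bud, 30.1 CPM in heart and 4.66 CPM in the remaining embryo, the lowest of its genotype in each. Replicate 1 had 7.93, 47.9 and 9.24 CPM in those tissues. For Cd59a the same replicate was lowest in all 3 tissues in 1 of 7 genotypes and highest in 0. Over all genes these shares were 18.3% and 17.7%. The Delta_18 log2 fold change was 0.42 ± 0.27 for tail bud, 0.43 ± 0.15 for heart and 0.85 ± 0.17 for the remaining embryo. Without Delta_18 replicate 2 it was 0.69, 0.63 and 1.07, and without Delta_18 replicate 1 it was 0.05, 0.32 and 0.58.

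Embryo sex was unequal over the genotypes. Xist, the RNA expressed from the inactive X chromosome, was high in 3 of 3 Delta_92 embryos, 2 of 3 Delta_18 embryos, 0 of 3 Full-KO embryos and 1 of 3 Wild-type embryos. It was also high in 2 of 3 embryos each of Delta_19 and Delta_17_18, and in 1 of 3 each of Delta_17 and Delta_17_18_92. Within Delta_18, replicate 1 had 5.71 CPM of Xist in the remaining embryo and the highest Cd59a, while replicate 2 had 2555 CPM of Xist and the lowest Cd59a. Within Wild-type, the replicate with 2498 CPM of Xist had 3.97 CPM of Cd59a in the remaining embryo, against 4.00 and 3.87 CPM in the others. That replicate had the highest Wild-type Cd59a in heart and, by a small margin, in tail bud. The part of embryo sex in the Cd59a values was not tested. The 8 cardiomyocyte markers summed to 359 to 418 CPM in the remaining embryo of Delta_92 against 264 to 342 CPM in Wild-type. They summed to 433 to 628 CPM in Delta_17_18_92. The 5 endothelial markers summed to 382 to 403 CPM in the remaining embryo of Delta_92 against 364 to 379 CPM in Wild-type. The part of cardiomyocytes and endothelium in the Cd59a values was not tested.

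**Figure D2:**
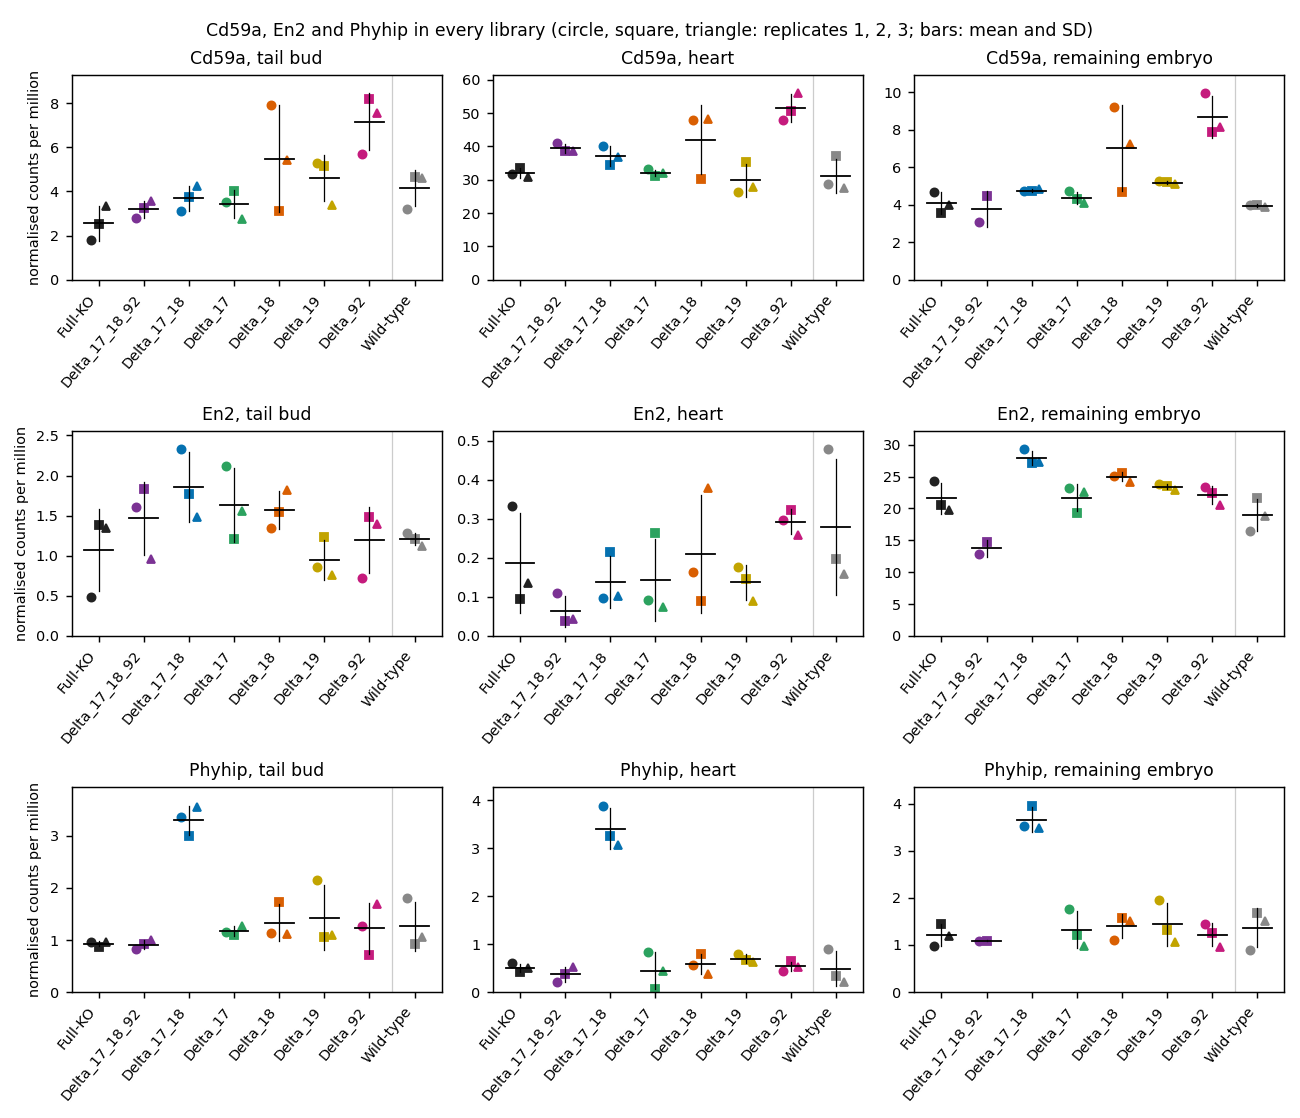
Levels of Cd59a, En2 and Phyhip in CPM (vertical axes) in tail bud, heart and the remaining embryo, by genotype, with mutants left of Wild-type. Each marker is 1 library, circle, square and triangle are replicates 1, 2 and 3, and the bars give the mean and SD. Cd59a is highest in Delta_92, En2 in the remaining embryo is highest in Delta_17_18 and lowest in Delta_17_18_92, and Phyhip is high in Delta_17_18 alone among the genotypes plotted.

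The plot of Cd59a, En2 and Phyhip levels shows a different top genotype for Cd59a than for En2 and Phyhip, and the spread of the Delta_18 libraries for Cd59a. No other complement gene passed the test there. Of 21 complement components and membrane regulators, 9 passed the low-count filter in each tissue, and edgeR called 0 of them in Delta_92 in the remaining embryo, where 0.588% of all genes were called. There 1 had an unadjusted p under 0.05, DESeq2 also called 0, and the median log2 fold change was 0.07. Cd59b, the paralogue next to Cd59a, averaged 0.691 ± 0.063 CPM in Delta_92 and 0.641 ± 0.052 CPM in Wild-type in the remaining embryo (SD, n = 3 each; log2 fold change 0.11, edgeR adjusted p = 0.97). How the counting treated any reads shared by these paralogues is not given in the sources used here, so the division of such reads between both is uncertain.

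Of the 10 tested genes on each side of Cd59a, 1 rose in the remaining embryo of Delta_92, which is 5% of them. It was Hipk3, a homeodomain-interacting protein kinase gene, at 155 CPM in Delta_92 and 130 CPM in Wild-type (0.25, edgeR adjusted p = 0.00286), and without Wild-type replicate 1 the adjusted p was 0.0539. The genes most like Cd59a over the 24 group means were Eif2s3x (r = 0.84), 1700037H04Rik (r = 0.83) and Xist (r = 0.83). Eif2s3x and Xist are on the X chromosome, and 1700037H04Rik is on chromosome 2, 507 genes away.

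En2 (ENSMUSG00000039095, chromosome 5) encodes the homeodomain transcription factor engrailed 2, which patterns the midbrain and the cerebellum. It was most abundant in the remaining embryo, which holds the brain. There it stood at 29.3, 27.2 and 27.3 CPM in Delta_17_18, 25.2, 25.6 and 24.2 CPM in Delta_18 and 12.8 and 14.7 CPM in the 2 Delta_17_18_92 libraries, against 16.5, 21.7 and 18.8 CPM in Wild-type. Full-KO had 24.3, 20.6 and 19.8 CPM. Delta_17_18 and Delta_18 were above all Wild-type libraries, Delta_17_18_92 was below all of them, and Full-KO overlapped them.

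The other single-family alleles lay between. Delta_19 had 23.8, 23.6 and 23.0 CPM, Delta_92 had 23.4, 22.4 and 20.6 CPM and Delta_17 had 23.2, 19.3 and 22.6 CPM, so Delta_19 alone of these was above all Wild-type libraries. Log2 fold changes against Wild-type were 0.55 ± 0.09 in Delta_17_18 (1.47-fold), 0.39 ± 0.09 in Delta_18, 0.30 ± 0.09 in Delta_19, 0.22 ± 0.09 in Delta_92, 0.19 ± 0.09 in Delta_17, 0.18 ± 0.09 in Full-KO and -0.47 ± 0.10 in Delta_17_18_92 (0.724-fold).

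Delta_17_18 lay on the sum of its single-family alleles, with observed minus summed at -0.03 ± 0.12. Removing miR-92a-1 in addition went with a drop of more than 1 log2 unit. Delta_17_18_92 minus Delta_17_18 was -1.02 ± 0.10 (95% interval -1.21 to -0.82, not adjusted for the choice of En2). Full-KO, which lacks miR-19 as well, stood above Delta_17_18_92 by 0.65 ± 0.10. The observed minus summed value was -1.26 ± 0.18 in Delta_17_18_92 and -0.91 ± 0.23 in Full-KO.

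In tail bud En2 was low, at 2.33, 1.77 and 1.48 CPM in Delta_17_18 against 1.29, 1.21 and 1.13 CPM in Wild-type (log2 fold change 0.60 ± 0.32). In heart it was not tested, with 84 counts over 24 libraries and between 1 and 10 counts in each.

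The 4 neural progenitor markers summed to 574 to 610 CPM in Delta_17_18, 445 to 577 CPM in Delta_17_18_92 and 504 to 588 CPM in Wild-type in the remaining embryo, and the 12 early neuron markers to 185 to 241, 168 to 245 and 162 to 203 CPM. These ranges overlapped between each mutant and Wild-type. The 8 cardiomyocyte markers were higher in the Delta_17_18_92 libraries, as given for Cd59a. The 5 endothelial markers summed to 410 to 431 CPM in Delta_17_18_92 against 364 to 379 CPM in Wild-type, and the 6 primitive erythroid markers to 2127 to 2198 CPM against 2610 to 3901 CPM. In Delta_17_18 the 6 visceral endoderm markers summed to 40.1 to 45.1 CPM against 52.3 to 509 CPM in Wild-type. The part of these cells in the En2 values was not tested.

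Of 16 other midbrain-hindbrain boundary genes, 15 were tested in tail bud, where 1 rose and 0 fell in Delta_17_18 (8.31% of all genes called) and likewise in Full-KO (10.4%). In both it was Fgf15, a growth factor gene, at 0.45 (edgeR adjusted p = 0.0333) in Delta_17_18 and 0.43 (edgeR adjusted p = 0.0308) in Full-KO. Each of these calls was lost without Wild-type replicate 1 or 3, and also without any single Delta_17_18 library or Full-KO replicate 1 or 3. The remaining embryo was looked at after the values of En2 had been seen, and there all 16 were tested. In Delta_17_18 1 rose and 0 fell, with a median of 0.17 against 0.00 over all genes, and 4.44% of all genes were called. The riser was Cnpy1, an FGF signalling regulator known from zebrafish, which averaged 24.8 CPM in Delta_17_18 and 16.7 CPM in Wild-type (0.56, edgeR adjusted p = 0.0265). That call was lost without Wild-type replicate 1 or 3 or without any single Delta_17_18 library, with adjusted p up to 0.133.

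In Delta_17_18_92 0 of the 16 rose and 1 fell, with a median of -0.10 against -0.01 over all genes, and 5.62% of all genes were called. It was Pax5, a paired-box factor acting upstream of engrailed genes, at 4.64 CPM in Delta_17_18_92 and 7.31 CPM in Wild-type (-0.65, edgeR adjusted p = 0.00866), lost without Delta_17_18_92 replicate 1 (adjusted p = 0.148). En1, the paralogue of En2, had log2 fold changes of 0.24 in Delta_17_18 (edgeR adjusted p = 0.338) and -0.20 in Delta_17_18_92 (edgeR adjusted p = 0.513).

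Of the 10 tested genes on each side of En2, 1 rose in Delta_17_18 tail bud, Kmt2c, a histone methyltransferase gene (0.28, edgeR adjusted p = 0.0326), lost without Wild-type replicate 3 or without any single Delta_17_18 library. In the remaining embryo 2 rose in Delta_17_18, which is 10% of them, Cnpy1 and the ubiquitin ligase gene Ube3c (0.14, edgeR adjusted p = 0.0439). The Ube3c call was lost without any single library of either group. Over the 16 group means of tail bud and remaining embryo, the genes most like En2 were Spsb4 (r = 0.85), Pkmyt1 (r = 0.85) and Ssc5d (r = 0.83) out of 13085 genes compared.

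Phyhip (ENSMUSG00000003469) encodes a brain-expressed protein that binds phytanoyl-CoA hydroxylase, the enzyme that starts the alpha-oxidation of phytanic acid. It lies on chromosome 14, as does the miR-17~92 cluster. It was high in Delta_17_18 alone. In heart it stood at 3.89, 3.24 and 3.08 CPM in Delta_17_18 against 0.908, 0.346 and 0.212 CPM in Wild-type, and in tail bud at 3.36, 2.99 and 3.54 CPM against 1.80, 0.931 and 1.06 CPM. In the remaining embryo it stood at 3.52, 3.96 and 3.48 CPM in Delta_17_18 against 0.896, 1.69 and 1.52 CPM in Wild-type. The 3 tissues of Delta_17_18 had similar CPM, and each of their libraries lay above every library of every other genotype of the same tissue.

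The log2 fold change of Phyhip in Delta_17_18 was 1.36 ± 0.27 in tail bud (2.57-fold), 2.77 ± 0.42 in heart (6.80-fold) and 1.40 ± 0.23 in the remaining embryo (2.65-fold). The heart value depends on Wild-type replicate 1, without which it was 3.57. In Delta_17_18_92 the values were -0.48 ± 0.31, -0.43 ± 0.51 and -0.34 ± 0.30, with tail bud levels of 0.826, 0.918 and 0.992 CPM. In Full-KO they were -0.46 ± 0.31, 0.01 ± 0.51 and -0.20 ± 0.27. The step between the alleles, Delta_17_18_92 minus Delta_17_18, was -1.84 ± 0.28 for tail bud, -3.20 ± 0.42 for heart and -1.75 ± 0.27 for the remaining embryo.

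Delta_17 and Delta_18, which lack the same families singly, did not show the change. Their log2 fold changes were -0.11 ± 0.30 and 0.05 ± 0.30 in tail bud, -0.06 ± 0.50 and 0.25 ± 0.48 in heart and -0.09 ± 0.26 and 0.00 ± 0.26 in the remaining embryo, and their libraries overlapped Wild-type. Observed minus summed values for Delta_17_18 were 1.42 ± 0.40, 2.57 ± 0.65 and 1.49 ± 0.35, so Phyhip was the only member whose joint change exceeded the sum. In heart 15 of 24 libraries reached the count filter, 12 of them outside Delta_17_18, so the gene did not enter the test through Delta_17_18 alone.

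The 12 early neuron markers summed to 32.2 to 38.9 CPM in Delta_17_18 heart against 24.5 to 31.9 CPM in Wild-type heart, and the 8 tail bud markers to 14.4 to 20.8 CPM against 9.38 to 14.1 CPM. In Delta_17_18 tail bud the neuron markers summed to 133 to 160 CPM against 110 to 116 CPM in Wild-type, and the 4 neural progenitor markers to 242 to 244 CPM against 189 to 215 CPM. The part of these cells in the Phyhip value was not tested. Phyhip itself averaged 3.40 CPM in heart, 3.30 CPM in tail bud and 3.65 CPM in the remaining embryo of Delta_17_18. The Wild-type means were 1.26 CPM in tail bud and 1.37 CPM in the remaining embryo.

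Of 10 genes of alpha-oxidation and known partners, 9 were tested in heart and edgeR called 0 in Delta_17_18, where 1.12% of all genes were called, 1 had an unadjusted p under 0.05, and DESeq2 also called 0. Phyh, which encodes the hydroxylase, averaged 30.1 CPM in Delta_17_18 heart and 30.7 CPM in Wild-type heart (log2 fold change -0.03, edgeR adjusted p = 0.917). Phyhipl, a paralogue of Phyhip, was not tested in heart, and its log2 fold change in the remaining embryo was 0.18 in Delta_17_18 (edgeR adjusted p = 0.51). Of the 10 tested genes on each side of Phyhip, edgeR called 0 in Delta_17_18 heart and 4 had an unadjusted p under 0.05. Among genes with a symbol, those most like Phyhip over the 24 group means were Mettl17 (r = 0.81) and Sfi1 (r = 0.80), after an unnamed gene (r = 0.84). Mettl17 is on chromosome 14, 430 genes away.

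**Figure D3:**
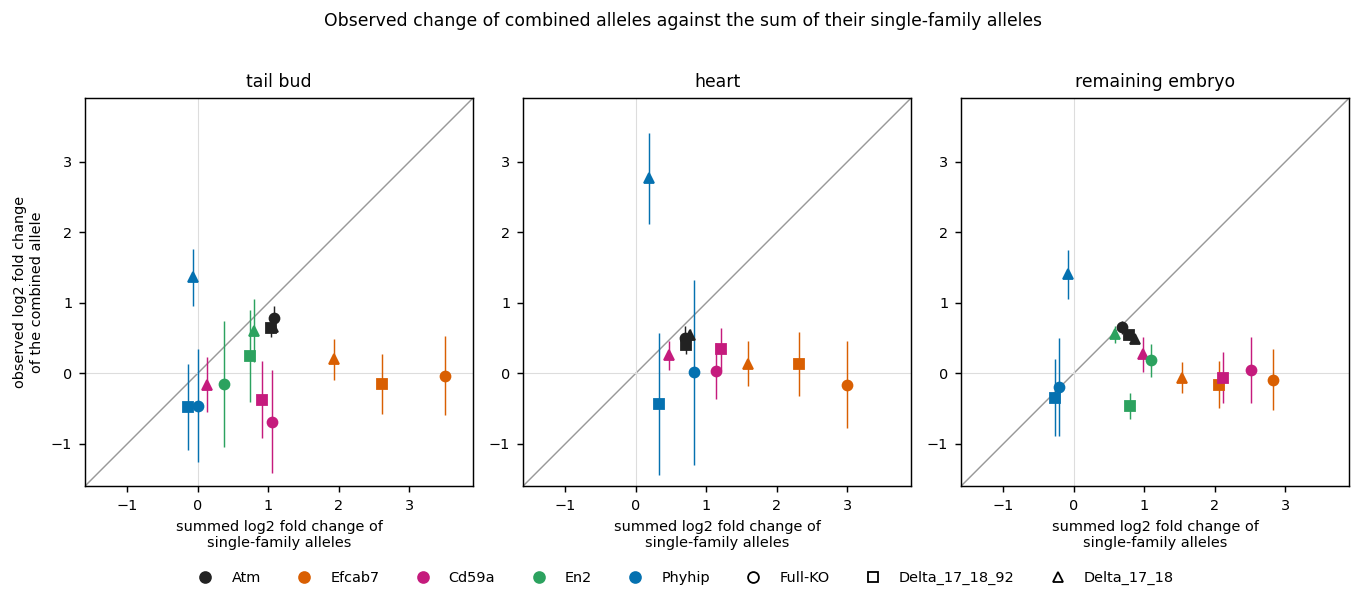
Observed log2 fold change against Wild-type (vertical axis) and the sum of the single-family alleles' log2 fold changes (horizontal axis) for the members in Full-KO, Delta_17_18_92 and Delta_17_18, 1 panel per tissue. Error bars are the SE of observed minus summed, and the line marks equality. Efcab7 lies far below the line in each tissue, Atm closer to it, and Phyhip in Delta_17_18 above it.

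Set side by side, the plot of observed against summed changes shows 3 shapes. Efcab7 lay below the sum in all 3 alleles and tissues, down to -3.54 in Full-KO tail bud, as Cd59a did in Full-KO and Delta_17_18_92 and, by less, Atm in Delta_17_18. Phyhip exceeded it in Delta_17_18 by 1.42 to 2.57. En2 matched it in Delta_17_18 and lay below it in Delta_17_18_92 and Full-KO in the remaining embryo. The summed values are built from the same Wild-type libraries as the observed ones, and their error grows with the number of alleles added.

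**Figure D4:**
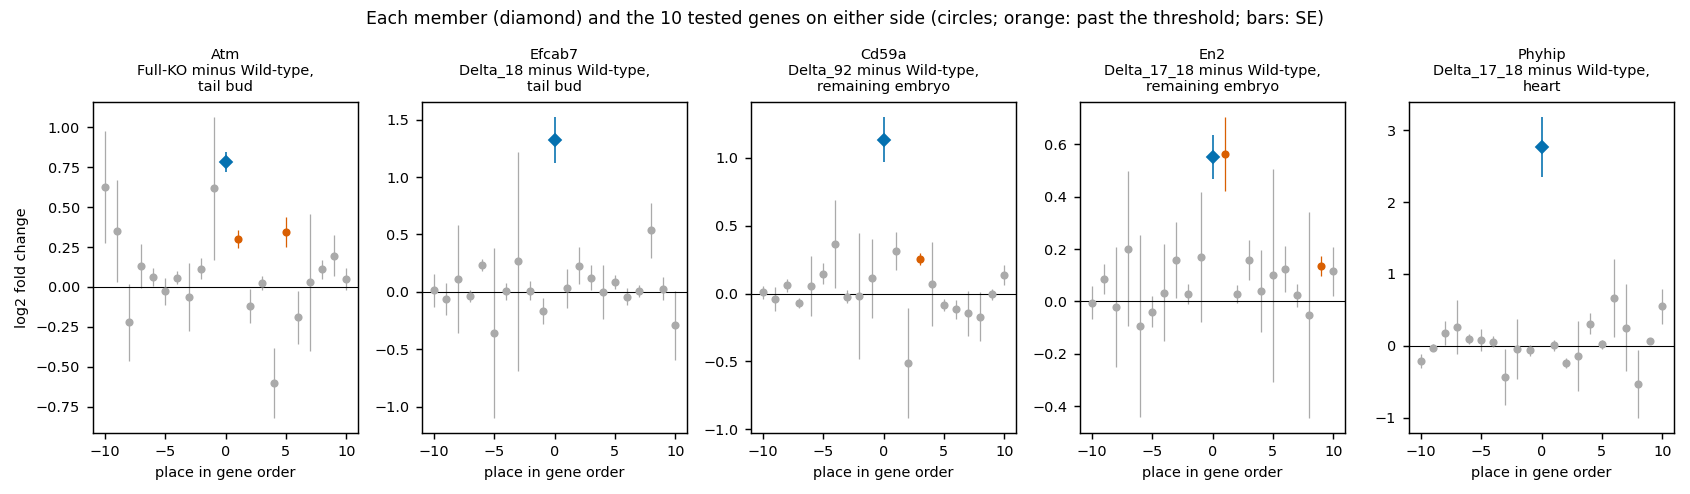
Log2 fold change (vertical axis) of each member and of the 10 tested genes on each side by gene order (horizontal axis, in genes from the member), in 1 comparison with Wild-type per member: Atm in Full-KO tail bud, Efcab7 in Delta_18 tail bud, Cd59a in Delta_92 and En2 in Delta_17_18 in the remaining embryo, and Phyhip in Delta_17_18 heart. The diamond is the member and orange marks neighbours past the adjusted threshold. All 5 diamonds lie above 0, and between 0 and 2 of the 20 neighbours are past the threshold.

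The plot of neighbouring genes sets each member beside the genes around it, of which only those named above passed the test in the comparisons plotted. Neighbours were taken from the gene order of GRCm38, while the counts were made on mm9.

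Differences between tissues of Wild-type embryos did not enter the choice of members and were tested, in a separate fit of the 9 Wild-type libraries whose scaling makes the CPM differ slightly from those above. Heart and tail bud differed for 68.6% of 16922 genes, heart and the remaining embryo for 68.1%, and tail bud and the remaining embryo for 29.8%, so a tissue difference is common. Cd59a was the member enriched in heart, at 34.9 ± 5.86 CPM in heart and 4.00 ± 0.78 CPM in tail bud (SD, n = 3 each; log2 fold change 3.14, edgeR adjusted p = 1.36e-09), and it was higher in heart than in the remaining embryo by 3.25 (edgeR adjusted p = 1.1e-09). Atm was lower in heart, at 94.3 ± 6.55 CPM against 135 ± 13.8 CPM in tail bud (-0.52, edgeR adjusted p = 4.87e-05) and by -0.71 against the remaining embryo (edgeR adjusted p = 2.8e-06).

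Efcab7 was lower in heart too, at 2.25 CPM against 4.90 CPM in tail bud (-1.12, edgeR adjusted p = 5.49e-05), and by -1.36 against the remaining embryo (edgeR adjusted p = 8.5e-06). En2 had the steepest gradient, with 0.313 CPM in heart and 17.7 CPM in the remaining embryo (-5.77, edgeR adjusted p = 3.61e-10), and was lower in tail bud than in the remaining embryo by -3.91 (edgeR adjusted p = 1.19e-08). Heart En2 was also lower than in tail bud (-1.86, edgeR adjusted p = 0.000419). En2 was near the floor in heart, where 1 of 24 libraries of all genotypes reached the count filter. It entered this fit through the other tissues, so the sizes of both heart differences are uncertain.

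Wild-type Phyhip was at 0.55 CPM in heart and 1.21 CPM in tail bud (-1.13, edgeR adjusted p = 0.0503), just short of the threshold, and passed it without Wild-type heart replicate 1 (-1.94, adjusted p = 0.00628) or without Wild-type tail bud replicate 2 (adjusted p = 0.0344) or 3 (adjusted p = 0.0371). Against the remaining embryo it was -1.19 (edgeR adjusted p = 0.0382), lost without Wild-type replicate 2 or 3 of either tissue, with adjusted p of 0.0965 to 0.145. Between tail bud and the remaining embryo, the values of Atm (-0.19, edgeR adjusted p = 0.0764), Efcab7 (-0.24, edgeR adjusted p = 0.257), Cd59a (0.11, edgeR adjusted p = 0.676) and Phyhip (-0.07, edgeR adjusted p = 0.924) did not pass the threshold. Without Wild-type tail bud replicate 2 that of Atm did (-0.25, adjusted p = 0.0287).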

How the data were processed

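The authors deposited whole-number read counts per Ensembl gene, not normalised, in 1 table of 37620 genes and 71 libraries. The submitters' processing notes name STAR 2.3.0 and SAMtools 0.1.14, then Subread 1.4.2 with its featureCounts, and the builds mm9 and NCBIM37. The annotation release, the strand setting and the treatment of multi-mapping reads are not given in the sources used here. Symbols, gene order and 3′ untranslated regions came from GENCODE on GRCm38 by gene ID (32897 IDs matched), and coordinates are not given.

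The members and lists were chosen with earlier results of these data known. Named genes were the members, their paralogues and partners, the 3 genes most alike in pattern, called neighbours, and up to 4 called genes per list.

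R 4.3.3 and edgeR 4.0.16 fitted each tissue on its own, with filterByExpr grouped on genotype (minimum count 10), TMM factors, robust quasi-likelihood, and Benjamini-Hochberg adjustment over the genes tested (17009 for tail bud, 16750 for heart, 17512 for the remaining embryo). Departure from additivity was tested with 3 degrees of freedom. The procedure was tested on simulated data. DESeq2 1.42.0 and other settings were alternatives. All 70 replicate pairs differed beyond counting noise (chi-square over its degrees of freedom at least 2.66).

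In Wild-type, same-numbered libraries of different tissues deviated together in 9 of 9 pairs (r from 0.124, over 0.1 in each), so the numbers pair tissues, and adding them as a block changed no member's call. Across genotypes within a tissue they did so in 24 of 62 pairs (median r 0.005), and the fits there have no block. Some genes that met the naming rule are not reported here.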

Additional observations from a re-analysis of the deposited data

How the results depend on the processing

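The members' 98 log2 fold changes were recomputed 1071 times, and 1060 values moved by less than the SD between replicates and 11 moved further, while 0 of those past the threshold changed sign. Of the 11, 10 were Phyhip values without Wild-type replicate 1 of tail bud or heart, and the other was Cd59a in the remaining embryo of Delta_17_18_92 without replicate 2 (-0.34). Between Wild-type tail bud and remaining embryo, Phyhip (-0.07) ranged from -0.43 (without tail bud replicate 1) to 0.14. It reversed to 0.14 and 0.03 without tail bud replicate 2 or 3, and to 0.11 and 0.01 without remaining-embryo replicate 2 or 3. The heart minus tail bud difference of Phyhip also passed the threshold with no filter (adjusted p = 0.0362) and by DESeq2 (adjusted p = 0.049). Without Wild-type tail bud replicate 3, the tail bud log2 fold changes of Npat (0.05) and Mir17hg (0.09) in Delta_18 turned to -0.023 and -0.0017, and over the libraries left out they ranged up to 0.095 and 0.17.

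Counts of all genes called depended on the fit. With only the libraries of both groups fitted, they were 198 in Full-KO tail bud (1776 with all libraries), 0 in Delta_18 tail bud (22), 7 in Delta_17_18 tail bud (1414), 1010 in Full-KO heart (655) and 1267 in Delta_17_18 remaining embryo (778). DESeq2 called 61 in Delta_18 tail bud and 332 in Delta_17_18 heart (187), and 11, 197 and 73 for departure from additivity in tail bud, heart and remaining embryo (3, 10 and 18). With no filter the calls were 1003 in Full-KO heart, 749 in Delta_17_18 heart, 328 in Delta_92 remaining embryo (103), 1212 in Delta_17_18 remaining embryo, and for departure 1011 in heart and 521 in the remaining embryo. The cause was not tested. With only the libraries of both groups fitted, the Full-KO tail bud calls of Npat, Chek2 and Smo were lost (adjusted p = 0.109, 0.0603 and 0.174), as were the other tail bud calls named except that of Mir17hg in Full-KO. With no filter the Sesn1, Evc2, Kmt2c, Raver2 and Atg4c calls were lost, and with the replicate block that of Jak1.

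For Full-KO, Delta_18 and Delta_17_18 tail bud the highest counts below came without Wild-type replicate 2. Leaving out 1 library gave 758 to 2839 calls in Full-KO tail bud, 14 to 627 in Delta_18 tail bud, 365 to 2705 in Delta_17_18 tail bud, 260 to 467 in Full-KO heart, 64 to 339 in Delta_17_18 heart, 333 to 582 in Delta_17_18, 67 to 76 in Delta_92 and 376 to 848 in Delta_17_18_92 remaining embryo (984), and for departure 10 to 25 in the remaining embryo, 4 to 47 in heart and 1 to 4 in tail bud. With the replicate number as a block there were 1806 calls in Full-KO tail bud, 22 in Delta_18 tail bud, 1419 in Delta_17_18 tail bud, 153 in Delta_17_18 heart and 755 in Delta_17_18 remaining embryo. DESeq2 called 4 ATM partners (2 by edgeR) and 3 p53 targets (1) in Full-KO tail bud, and 2 midbrain-hindbrain genes (1) in tail bud of both Delta_17_18 and Full-KO. With 25 genes on each side, 10% of the neighbours of Atm, 0% of Efcab7, 2% of Cd59a, 8% of En2 and 4% of Phyhip were called. Of the 3 most alike genes, Spearman correlation kept 2 for Atm, 2 for Efcab7, 1 for Cd59a, 1 for En2 and 0 for Phyhip. Groups of 3 libraries, and CPM near 1 for Phyhip and tail bud En2, limit the precision.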
